A study of Mus musculus with 8 samples.

Results

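The 10 genes described here encode inducible brakes on the MAP kinases: 5 dual-specificity phosphatases (*Dusp1*, *Dusp4*, *Dusp5*, *Dusp6* and *Dusp10*), 3 Sproutys (*Spry1*, *Spry2* and *Spry4*) and 2 Spreds (*Spred1* and *Spred2*). They were taken by symbol, as a list of feedback inhibitors of ERK and of the stress kinases, from the 54532 gene identifiers of the count files. All 10 had an identifier and passed the filter on low counts, as did 22544 genes in all. The cultures were primary pericytes from the brains of wild-type (WT) mice, which were grown and passaged on collagen-coated plates. RNA was sequenced from 4 cultures that had received 5 μg mL−1 TGF-β1, a secreted cytokine, for 48 h, and from 4 that had received vehicle. Vehicle cultures carry the numbers 1 to 4 and TGF-β1 cultures the numbers 5 to 8. The methods of the study describe 4 isolates that were each treated with vehicle and TGF-β1, but no label ties a vehicle culture to a TGF-β1 culture, so the groups were compared as unpaired, and the p-values measure the spread between these cultures.

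MAP kinases are switched on by phosphorylation of a threonine and a tyrosine in their activation loop, and dual-specificity phosphatases remove both phosphates. Sproutys act further upstream, between receptor tyrosine kinases and Ras, and Spreds bring the Ras GTPase-activating protein neurofibromin to the membrane. Many of these genes are transcribed in response to the kinases that they restrain, so their mRNA levels follow recent pathway activity in many cell types. TGF-β signals mainly through Smad transcription factors, and in addition through ERK, JNK and p38 in many mesenchymal cells.

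Of the 10 genes, 6 rose with TGF-β1 (*Dusp4*, *Dusp6*, *Dusp5*, *Spred2*, *Spry4* and *Dusp10*), 3 fell (*Spry2*, *Spry1* and *Dusp1*) and 1, *Spred1*, was not called (edgeR quasi-likelihood test, Benjamini-Hochberg adjusted p under 0.05). Among all genes tested, 41.3% were called, 20.9% as higher and 20.3% as lower. Many of all genes tested had fewer counts than any of the 10, and the part of depth in these shares was not tested. For 8 of the 10 genes no vehicle culture fell within the range of the TGF-β1 cultures or the reverse, against 37.9% of all genes tested. A call together with a log2 fold change beyond 0.5 in either direction was found for 3 of the 10, *Dusp4*, *Dusp6* and *Dusp5*, against 14.0% of all genes. The median log2 fold change was 0.20 over the 10 genes and -0.01 over all genes tested. The 10 genes were chosen with earlier results of these data known, so these shares describe the list and were not tested. The plot of levels by culture shows these differences gene by gene.

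**Figure D1:**
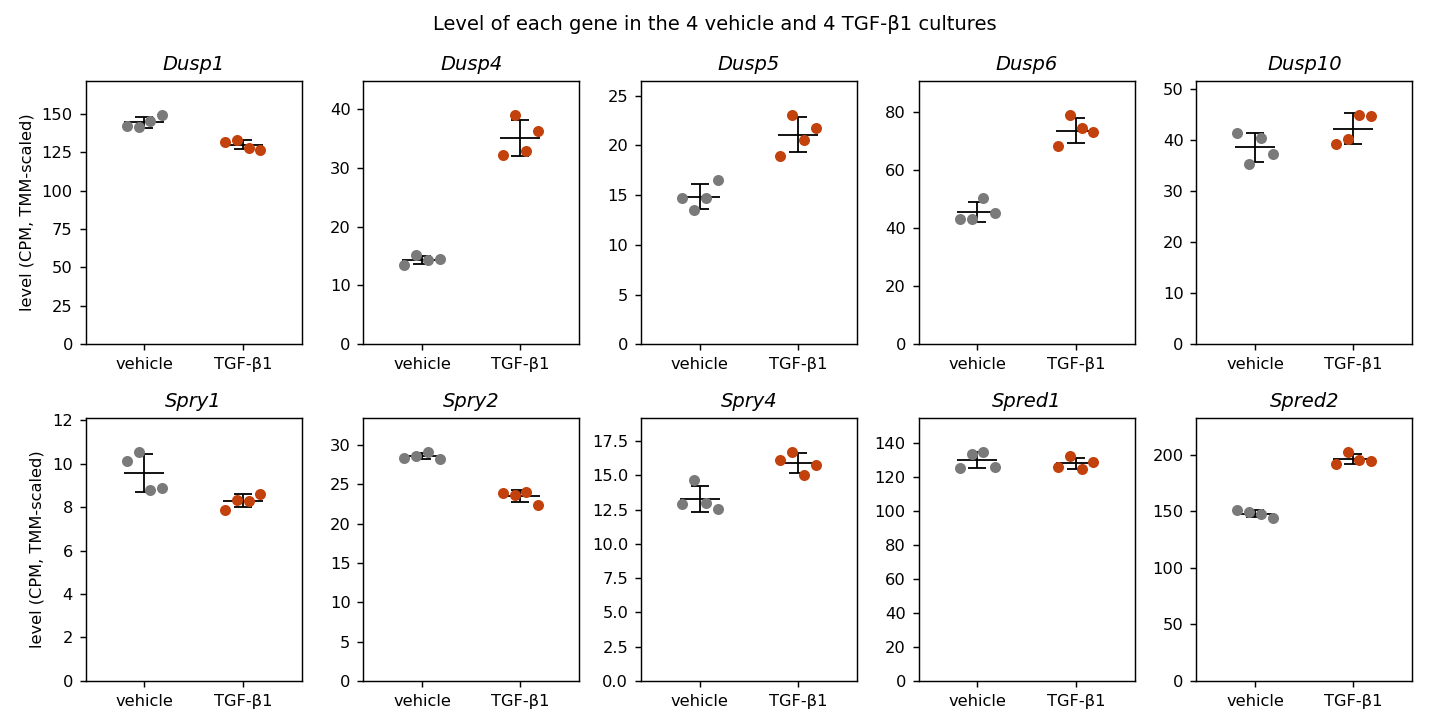
Level of each of the 10 genes (vertical axis, TMM-scaled CPM, from 0) in the 4 vehicle cultures (grey) and the 4 TGF-β1 cultures (orange), with the mean and SD as a bar and whiskers in black. *Dusp4* shows the widest separation as a ratio, from 13.5 to 15.1 CPM with vehicle and from 32.2 to 38.9 CPM with TGF-β1, whereas the groups overlap for *Dusp10* and *Spred1*.

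The libraries held 45255235 to 47651397 counts, so that 3 counts corresponded to 0.0631 to 0.0657 CPM (the counts-per-million unit, scaled with TMM factors), and the 10 genes were read with between 362 and 9294 counts per culture. Of the counts between 1 and 20, 68.5% to 70.2% were even. Of 9 pericyte markers, 6 had a mean of at least 1 CPM, among them *Pdgfrb* (197 to 293.5 CPM over all cultures) and *Notch3* (80.7 to 90.7 CPM). The pericyte channel genes *Kcnj8* and *Abcc9* were at or near 0, with at most 0.0436 and 0.189 CPM, and *Des* was between 0.545 and 0.779 CPM. The summed pericyte list was at 418 to 438 CPM with vehicle and 577 to 600.1 CPM with TGF-β1, but its members did not move together. *Pdgfrb* (197 to 209 CPM and 289 to 293.5 CPM), *Cspg4* (79.8 to 85.9 CPM and 163 to 176 CPM) and *Mcam* (4.08 to 6.67 CPM and 9.69 to 10.5 CPM) were higher with TGF-β1, while *Rgs5* (7.97 to 9.08 CPM and 1.91 to 2.46 CPM) and *Anpep* (36.8 to 45.2 CPM and 28.7 to 32.0 CPM) were lower. The fibroblast list, mostly *Col1a1*, was at 1652 to 1733 CPM and 2565 to 2693 CPM, with *Dcn* lower, at 50.3 to 55.3 CPM and 45.1 to 48.8 CPM. The neuron list was at 4.23 to 5.37 CPM and 8.81 to 11.7 CPM, of which *Tubb3* alone was higher without overlap (1.75 to 2.51 CPM and 6.43 to 8.99 CPM). The astrocyte list was at 234 to 245 CPM and 206 to 221 CPM, where *Slc1a2* was lower (35.2 to 41.2 CPM and 15.6 to 17.8 CPM), *Aldh1l1* higher (at most 5.76 CPM and at least 8.38 CPM) and the ranges of *Gja1* overlapped (187 to 199 CPM and 179 to 195 CPM). Endothelial markers (388 to 403 CPM and 372 to 399 CPM) were almost all *Cdh5*, followed by *Kdr* (16.2 to 19.3 CPM and 17.8 to 20.4 CPM). *Tek* was at 2.14 to 3.40 CPM and 1.83 to 2.18 CPM, and *Pecam1* at 0.779 to 1.64 CPM and 0.959 to 1.24 CPM. *Emcn* reached at most 0.298 CPM, and *Cldn5* and *Tie1* were at or near 0. Macrophage and microglia markers summed to at most 3.69 CPM and 5.03 CPM, and oligodendrocyte lineage markers to 4.12 to 5.48 CPM and 5.33 to 6.04 CPM. The part of these shifts in the results below was not tested, and in bulk RNA fewer cells of a type and less RNA per cell cannot be told apart.

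Among the nuclear phosphatases, *Dusp4* made the largest change of the 10 genes. *Dusp4* (ENSMUSG00000031530, chromosome 8, 34807297 to 34819894, plus strand, GRCm38) encodes a phosphatase of ERK and JNK. Its level was 13.5, 15.1, 14.3 and 14.5 CPM in vehicle cultures 1 to 4 and 32.2, 38.9, 33.0 and 36.3 CPM in TGF-β1 cultures 5 to 8. The groups were widely apart, with TGF-β1 culture 5 the lowest of its group and vehicle culture 2 the highest. The means were 14.4 ± 0.666 CPM (SD, n = 4) and 35.1 ± 3.13 CPM (SD, n = 4), a 2.44-fold difference. A two-sided exact permutation test gave p = 0.0286 here and for every other member without overlap, which is as low as groups of 4 can reach. On the log2 scale the rise was 1.29 (SE 0.05, 95% interval 1.18 to 1.40, edgeR adjusted p = 2.07e-22).

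*Dusp5* (ENSMUSG00000034765, chromosome 19, 53529109 to 53542431, plus strand), whose protein binds and dephosphorylates ERK in the nucleus, rose less. It was at 14.7, 13.5, 14.7 and 16.5 CPM with vehicle and at 18.9, 23.0, 20.6 and 21.8 CPM with TGF-β1. The lowest TGF-β1 culture, number 5, lay above the highest vehicle culture, number 4. The log2 fold change was 0.50 (SE 0.06, 95% interval 0.38 to 0.63, edgeR adjusted p = 3.51e-09). In GENCODE M21, 22.1% of its exon length is covered by an antisense gene on the other strand, and the strand setting of the counting is not given in the sources used here.

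*Dusp1* (ENSMUSG00000024190, chromosome 17, 26505590 to 26562128, minus strand) moved the other way. It encodes an immediate early phosphatase that acts mostly on p38 and JNK. The vehicle cultures were at 141.9, 141.3, 145.3 and 148.9 CPM and the TGF-β1 cultures at 131.7, 132.7, 127.9 and 126.4 CPM. The groups did not overlap, and the mean went from 144.3 ± 3.54 CPM (SD, n = 4) to 129.7 ± 2.98 CPM (SD, n = 4), 0.898 times the vehicle level. *Dusp1* fell by 0.15 on the log2 scale (SE 0.03, 95% interval -0.21 to -0.10, adjusted p = 4.05e-06, edgeR). On the other strand, *Ergic1* covers 0.33% of the *Dusp1* exon length. *Ergic1* was at 344 to 355 CPM with vehicle and 314 to 317 CPM with TGF-β1, and its part in the *Dusp1* values was not tested.

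The region upstream of the start site is shown for *Dusp5* and *Dusp1*, a pair of nuclear phosphatases that moved in opposite directions. Of the 8 members with a promoter entry, these alone had a match among 6 motifs searched. *Dusp4* and *Spry4* had no entry and were not searched. A promoter entry of RefSeq (GRCm38.p6) was held for 8 of the 10 genes, and the 250 bases before the start site were searched on both strands for TGACTCA (AP-1), TGACGTCA (CRE, the site of CREB-family factors), GTCTAGAC (Smad palindrome), CAGACA (a Smad element with a flanking base), CCGGAAGT (ETS) and the CArG box of serum response factor. In the *Dusp5* window the capitals mark 2 CArG boxes that lie end to end, from position -82 to -63 relative to the start. In the *Dusp1* window the capitals mark a CRE, from -143 to -136, and a CAGACA match on the other strand, from -122 to -117.
Dusp5, chr19:53528895-53529144, plus strand: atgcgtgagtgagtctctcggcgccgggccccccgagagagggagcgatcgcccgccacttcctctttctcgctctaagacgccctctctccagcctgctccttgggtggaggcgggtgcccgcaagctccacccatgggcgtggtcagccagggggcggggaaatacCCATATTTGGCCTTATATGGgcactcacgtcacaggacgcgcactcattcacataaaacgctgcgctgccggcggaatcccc
Dusp1, chr17:26508473-26508722, minus strand: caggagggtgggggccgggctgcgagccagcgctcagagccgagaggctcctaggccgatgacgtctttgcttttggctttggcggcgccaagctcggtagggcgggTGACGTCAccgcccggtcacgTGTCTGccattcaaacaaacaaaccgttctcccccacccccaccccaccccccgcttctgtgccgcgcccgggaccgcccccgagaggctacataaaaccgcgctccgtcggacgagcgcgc

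A CArG box was found in 1.47% of the 32851 windows of the table, a CRE in 1.55% and CAGACA in 17.1%. Neither the AP-1 letters (4.46% of all windows), the ETS letters (2.88%) nor the Smad palindrome (0.167%) occurred in the 8 windows. The RefSeq start of *Dusp1* lies inside the span that GENCODE gives the gene, so its window is upstream of that start and not of the whole span. The end of the *Dusp5* window, at 53529144, also lies inside the GENCODE span of that gene, which begins at 53529109. These matches describe letters in the window and no binding was measured.

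*Dusp6* (ENSMUSG00000019960, chromosome 10, 99263231 to 99267489, plus strand) encodes the cytoplasmic phosphatase that acts mainly on ERK and is among the most used readouts of ERK activity. Its values were 43.3, 43.1, 50.5 and 45.3 CPM with vehicle and 68.3, 78.9, 74.5 and 73.1 CPM with TGF-β1. The groups were far apart, with the highest vehicle culture, number 3, at 50.5 CPM and the lowest TGF-β1 culture, number 5, at 68.3 CPM. The mean rose 1.62-fold, a log2 fold change of 0.69 (SE 0.05, 95% interval 0.59 to 0.80, adjusted p = 2.97e-10, edgeR).

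*Dusp10* (ENSMUSG00000039384, chromosome 1, 184013302 to 184075636, plus strand) encodes a phosphatase of the stress kinases JNK and p38. Its level was 41.4, 35.4, 40.4 and 37.2 CPM with vehicle and 39.2, 40.2, 44.9 and 44.8 CPM with TGF-β1. Cultures 5 and 6 fell within the vehicle range and cultures 7 and 8 above it (exact permutation test, two-sided, p = 0.171). The log2 fold change of 0.13 (SE 0.05, 95% interval 0.03 to 0.23) had an adjusted p of 0.0366 in edgeR's test. The log2 fold change was positive in all 15 alternatives (0.094 to 0.17), but the call was lost with DESeq2 (adjusted p = 0.0705), with library totals as the only scaling (0.0724) and with upper-quartile factors (0.0571). It was lost as well without vehicle culture 2 (0.126) or 4 (0.142) or TGF-β1 culture 7 (0.150) or 8 (0.0905).

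The Sproutys, which restrain signals from receptor tyrosine kinases to ERK, did not move together. *Spry2* (ENSMUSG00000022114, chromosome 14, 105891947 to 105896819, minus strand), the most abundant of them per exon length, was at 28.3, 28.6, 29.1 and 28.2 CPM with vehicle and at 23.9, 23.6, 24.1 and 22.4 CPM with TGF-β1. Its vehicle cultures were the tightest set of values among the 10 genes, with a coefficient of variation of 1.39%, and all TGF-β1 cultures lay below them. *Spry2* fell by 0.28 on the log2 scale (SE 0.04, 95% interval -0.37 to -0.19, adjusted p = 9.93e-07, edgeR).

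*Spry1* (ENSMUSG00000037211, chromosome 3, 37639947 to 37644598, plus strand), a close relative with a like role, was low at 10.1, 10.5, 8.79 and 8.90 CPM with vehicle and 7.89, 8.33, 8.31 and 8.63 CPM with TGF-β1. Vehicle cultures 3 and 4 lay close to TGF-β1 culture 8, though the groups did not overlap. The log2 fold change was -0.21 (SE 0.08, 95% interval -0.36 to -0.06, adjusted p = 0.0231, edgeR). The call was lost without vehicle culture 1 (0.0876) or 2 (0.122) or TGF-β1 culture 5 (0.0643). An antisense gene, *Gm42922*, covers 24.4% of its exon length and had only 4 to 15 counts per culture.

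*Spry4* (ENSMUSG00000024427), the third Sprouty, rose instead. Values of 12.9, 14.6, 13.0 and 12.5 CPM with vehicle compared with 16.2, 16.7, 15.0 and 15.7 CPM with TGF-β1. Vehicle culture 2, at 14.6 CPM, came nearest to the TGF-β1 cultures, of which culture 7 was lowest at 15.0 CPM. The log2 fold change was 0.26 (SE 0.06, 95% interval 0.14 to 0.38, adjusted p = 0.000416, edgeR).

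The Spreds split as well. *Spred2* (ENSMUSG00000045671, chromosome 11, 19924375 to 20024026, plus strand) was at 151, 149, 148 and 144 CPM with vehicle and at 192, 202, 196 and 195 CPM with TGF-β1. The spread within each group was small, with coefficients of variation of 2.15% and 2.27%, and the means of 148 ± 3.19 CPM and 196 ± 4.45 CPM (SD, n = 4 each) were 1.33-fold apart. Its log2 fold change was 0.41 (SE 0.03, 95% interval 0.36 to 0.46, adjusted p = 5.82e-18, edgeR).

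*Spred1* (ENSMUSG00000027351, chromosome 2, 117121374 to 117182279, plus strand), the neurofibromin partner that is lost in Legius syndrome, was at 125.5, 133.5, 134.6 and 125.9 CPM with vehicle and at 125.8, 132.5, 124.7 and 128.5 CPM with TGF-β1. The ranges overlapped almost fully (exact permutation test, two-sided, p = 0.514). The log2 fold change of -0.02 had a 95% interval of -0.08 to 0.03 (adjusted p = 0.575, edgeR), so that changes within these bounds are not excluded by the fit.

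**Figure D2:**
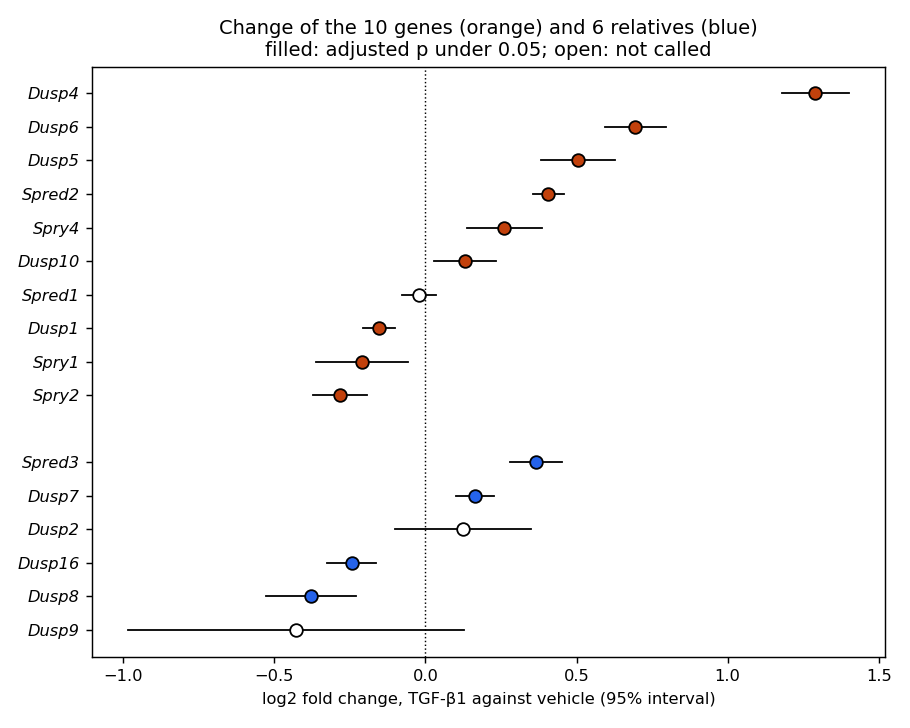
Log2 fold change of TGF-β1 against vehicle (horizontal axis) with its 95% interval for the 10 genes (orange, above) and 6 relatives (blue, below), each ordered by size; filled points had an adjusted p under 0.05 and open points did not. The values run from 1.29 for *Dusp4* to -0.28 for *Spry2* among the 10, and the wide interval of *Dusp9* comes with 14 to 42 counts per culture.

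Levels of different genes were compared per kilobase of annotated exon, since longer transcripts collect more reads. The length takes in every annotated exon of a gene, whether or not these cells use it. The order and the shares below depend on that choice, and transcript lengths in these cells were not measured. With vehicle the order of the mean level, in CPM per kilobase, was *Dusp1* (43.6), *Spred2* (32.0), *Spred1* (19.1), *Dusp6* (14.5), *Spry2* (13.7), *Dusp10* (12.7), *Dusp5* (6.01), *Dusp4* (5.24), *Spry1* (3.30) and *Spry4* (2.79). Neighbours whose culture ranges overlapped were *Dusp6* and *Spry2*, *Spry2* and *Dusp10*, *Dusp5* and *Dusp4*, and *Spry1* and *Spry4*. With TGF-β1 *Spred2* (42.4) stood first and *Dusp1* (39.2) second, followed by *Dusp6* (23.5), *Spred1* (18.9), *Dusp10* (13.9), *Dusp4* (12.8), *Spry2* (11.3), *Dusp5* (8.52), *Spry4* (3.34) and *Spry1* (2.85), and only *Dusp10* and *Dusp4* had ranges that overlapped. *Dusp4* thus went from eighth to sixth place, and the plot ordered by level per exon length shows it passing *Dusp5* and *Spry2*.

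**Figure D3:**
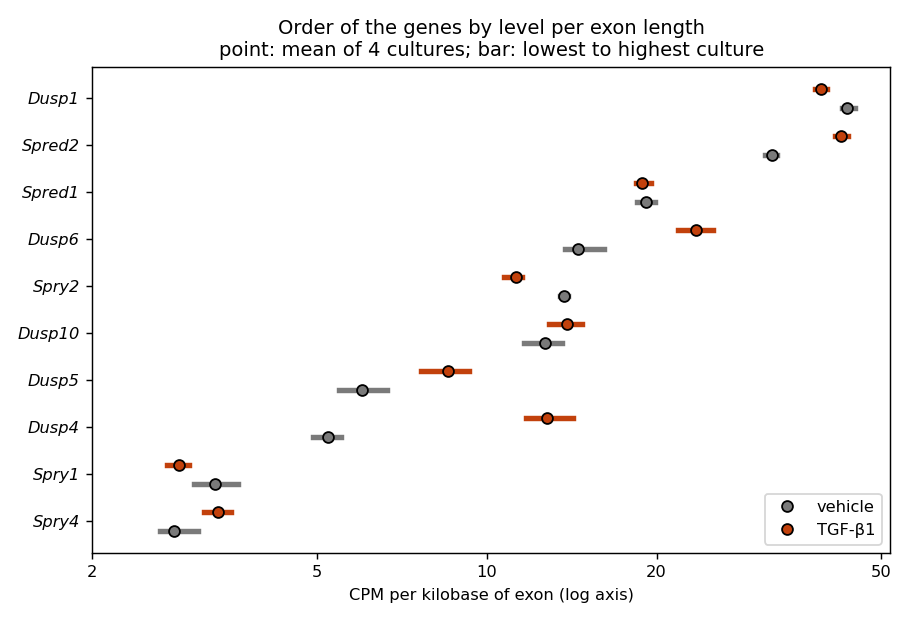
Level per kilobase of exon (horizontal axis, CPM per kilobase, log axis) for the 10 genes, ordered by the vehicle mean; points are means of 4 cultures (grey vehicle, orange TGF-β1) and bars run from the lowest to the highest culture. *Spred2* and *Dusp1* exchange the top place, at 32.0 and 43.6 with vehicle and 42.4 and 39.2 with TGF-β1.

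Summed per kilobase, the 5 phosphatases were at 81.1, 79.0, 84.5 and 83.6 with vehicle and at 93.9, 102, 97.5 and 98.3 with TGF-β1. The 2 Spreds went from between 49.7 and 51.9 to between 60.0 and 63.3, while the 3 Sproutys went from between 19.2 and 20.4 to between 17.0 and 17.7. The direction of the Sprouty sum followed *Spry2*, which made up 69.2% of it on average with vehicle and 64.5% with TGF-β1, while *Spry4* went from 14.1% to 19.2%. Within the phosphatases the mean share of *Dusp1* was 53.1% with vehicle and 40.0% with TGF-β1, that of *Dusp6* 17.7% and 24.0%, and that of *Dusp4* 6.39% and 13.1%. *Spred2* held 62.6% of the Spred sum with vehicle and 69.2% with TGF-β1. These sums are descriptions and were not tested.

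**Figure D4:**
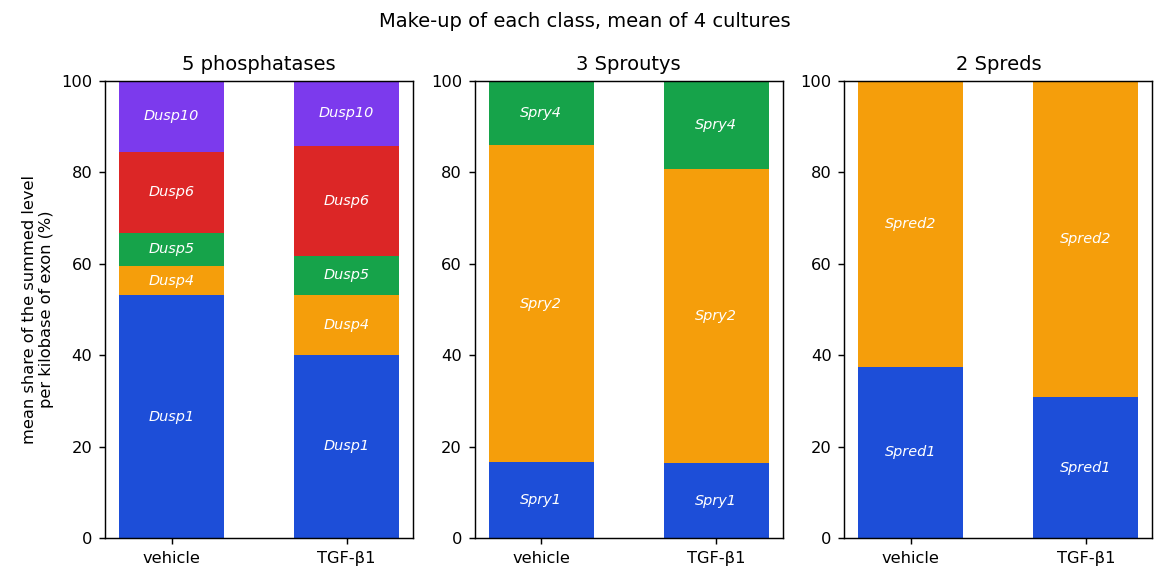
Mean share (vertical axis, percent, from 0) of each gene in the summed level per kilobase of exon of its class, for vehicle and TGF-β1 cultures (means of 4 cultures each). *Dusp1* shrinks from 53.1% to 40.0% of the phosphatase sum, and *Dusp4* and *Dusp6* take larger shares.

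The other genes of these families also moved in both directions. Of 7 relatives listed, 6 had an identifier, and 2 of them rose, 2 fell and 2 were not called. Over all genes tested, 20.9% were higher and 20.3% lower. *Spred3*, the third Spred, rose from 35.8, 36.9, 32.9 and 33.1 CPM to 41.6, 44.3, 45.7 and 47.0 CPM (log2 fold change 0.37, SE 0.04, adjusted p = 8.53e-10, edgeR), close in size to *Spred2*. *Dusp7*, a cytoplasmic ERK phosphatase related to *Dusp6*, rose from 61.4, 65.1, 66.5 and 65.4 CPM to 71.7, 73.1, 71.4 and 73.3 CPM (log2 fold change 0.16, SE 0.03, adjusted p = 2.58e-05, edgeR). In both the groups did not overlap.

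*Dusp8* and *Dusp16*, whose products act on JNK and p38 as that of *Dusp10* does, both fell. *Dusp8* went from 10.9, 10.7, 9.94 and 10.9 CPM to 9.29, 7.88, 8.02 and 7.48 CPM and fell by 0.38 on the log2 scale (SE 0.07, adjusted p = 4.22e-05, edgeR). *Dusp16* went from 40.1, 39.9, 37.8 and 40.1 CPM to 32.5, 32.6, 33.2 and 34.9 CPM and fell by 0.24 (SE 0.04, adjusted p = 1.51e-06, edgeR). All TGF-β1 cultures were below all vehicle cultures in both genes. *Dusp2*, a nuclear phosphatase best known from lymphocytes, was at 3.24 to 4.09 CPM with vehicle and 3.64 to 4.40 CPM with TGF-β1 (log2 fold change 0.13, 95% interval -0.10 to 0.35, adjusted p = 0.401, edgeR). *Dusp9* had few counts, 42, 30, 38 and 40 with vehicle and 19, 14, 40 and 38 with TGF-β1. Only cultures 5 and 6 lay below the vehicle cultures (adjusted p = 0.227, edgeR).

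Other genes of the pathways on which these proteins act were taken from lists of the ERK cascade, the stress kinase cascade and Ras GTPase-activating proteins. In the ERK cascade, 5 of 21 genes rose and 9 fell, with a median log2 fold change of -0.06. For this and each list below, the shares over all genes tested were 20.9% higher and 20.3% lower, with a median of -0.01. *Mapk3*, which encodes ERK1, went from 253.7, 252.5, 250.1 and 256.2 CPM to 188.2, 180.1, 185.1 and 174.1 CPM and fell by 0.48 on the log2 scale (adjusted p = 1.70e-20, edgeR), and *Mras*, a Ras-related GTPase, fell by 0.30. *Map2k1*, the ERK kinase MEK1, went from between 84.1 and 85.8 CPM to between 111 and 114 CPM, a log2 fold change of 0.40 (adjusted p = 5.65e-17, edgeR). *Hras*, which encodes a Ras GTPase, rose by 0.24.

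In the stress kinase cascade, 8 of 22 genes rose and 6 fell, with a median of 0.04. *Map2k6*, an activator of p38, fell by 0.85 on the log2 scale, from between 9.76 and 12.8 CPM to between 5.62 and 6.59 CPM (adjusted p = 1.51e-11, edgeR). *Mapk10*, the JNK gene best known from neurons, fell by 0.73 and *Map3k1* by 0.42, whereas *Mapk13*, *Mapkapk2* and *Map3k5* rose by 0.38, 0.37 and 0.30. The groups overlapped for *Mapk13*, which had an adjusted p of 0.0437. Among 10 Ras GTPase-activating proteins, 3 rose and 2 fell, with a median of 0.00. *Rasa1* rose most, from 149, 148, 157 and 150.0 CPM to 217, 246, 225 and 238 CPM (log2 fold change 0.62, adjusted p = 3.10e-18, edgeR). *Rasa4* and *Rasa2* rose by 0.26 and 0.17, while *Rasal2* and *Dab2ip* fell by 0.32 and 0.12. *Nf1*, which encodes neurofibromin, the partner of the Spreds, had a log2 fold change of 0.01 and was not called (adjusted p = 0.811).

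A list of 19 genes, drawn up as other negative regulators of receptor and ERK signalling, had 18 that were tested. Of these, 9 rose and 5 fell, with a median of 0.11. Not all genes of this list restrain ERK, *Ier3* and *Tesk1* among the risen ones, so these are not counts of ERK inhibitors. *Lrig1*, a membrane protein that limits ErbB receptors, rose from 76.3, 79.1, 83.3 and 81.6 CPM to 134.3, 149.1, 149.8 and 152.3 CPM (log2 fold change 0.87, adjusted p = 5.65e-20, edgeR). *Socs3*, an inhibitor of cytokine receptor signalling, and *Ier3*, an ERK target gene, rose by 0.85 and 0.76. *Cnksr3* fell by 0.70, *Il17rd*, an inhibitor of fibroblast growth factor signalling, by 0.27, and *Cblb*, a ubiquitin ligase, by 0.21. The groups overlapped for *Il17rd*, whose adjusted p of 0.0489 lay near the threshold.

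Genes commonly transcribed downstream of ERK were the list that moved most in 1 direction. In it, 12 of 16 were higher and 2 lower, with a median log2 fold change of 0.48. Over all genes tested, 20.9% were higher and 20.3% lower, with a median of -0.01. The list was written with earlier results of these cultures known, and the difference was not tested. *Etv4*, an ETS factor that is a common readout of receptor tyrosine kinase signalling, rose most, from 8.61, 10.1, 8.41 and 10.2 CPM to 26.8, 33.0, 30.4 and 32.3 CPM (log2 fold change 1.72, SE 0.07, adjusted p = 3.66e-20, edgeR). *Egr2* rose by 1.49 and *Egr3* by 0.91, both zinc finger factors of the immediate early response. The groups were fully apart in these 3 genes. *Epha4*, an ephrin receptor, and *Etv1*, an ETS factor related to *Etv4*, fell by 0.59 and 0.50, with every TGF-β1 culture below every vehicle culture.

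**Figure D5:**
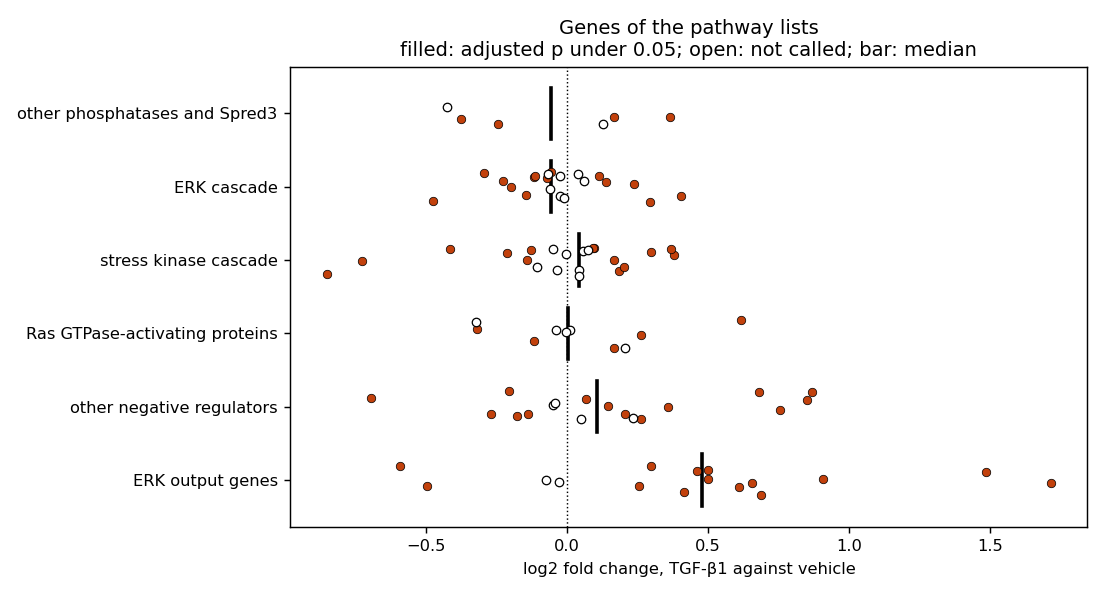
Log2 fold change of TGF-β1 against vehicle (horizontal axis) for each tested gene of 6 lists of the pathway; filled points had an adjusted p under 0.05, open points did not, and a bar marks the median of each list. The ERK output genes have a median of 0.48, while the medians of the other lists lie between -0.06 and 0.11.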

How the data were processed

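Reads had been mapped by the authors with STAR (2.7.5c, mm10), who then removed PCR duplicates with samtools (1.15), counted reads per gene with featureCounts (2.0.3) and deposited raw counts, 1 column per culture. The library kit keeps strand. How strand and shared reads were handled in counting, and the annotation release, are not given in the sources used here. Of 54532 identifiers, 54409 had a symbol, and exon lengths came from GENCODE M21 (GRCm38, the assembly of mm10).

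All genes were fitted with edgeR 4.0.16 in R 4.3.3 (filterByExpr, TMM factors over full library totals, robust dispersions, quasi-likelihood test) with Benjamini-Hochberg adjustment over the 22544 genes tested. The SE is the log2 fold change divided by the square root of F. For single levels, two-sided exact permutation tests were run in scipy 1.17.1. Alternatives were DESeq2 1.42.0 without a filter before the model, other scaling, other filters, counts divided by 2 and rounded up, and each culture left out. The fit was checked on simulated data.

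Named genes were the 10 members, their relatives, and from each other pathway list up to 3 called genes in each direction with the largest change and a mean of at least 1 CPM in either group. *Nf1*, outside this rule, was chosen with its values in view. A few genes covered by the rule are not reported here. The members and lists were chosen with earlier results of these data known. Libraries of a group differed by more than sampling noise, with 2.21 to 3.69 per degree of freedom in a chi-square test of counts, or 1.11 to 1.84 with that statistic divided by 2. Protein sequences were not used here, so a description of the proteins that had been planned was not made.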

Additional observations from a re-analysis of the deposited data

Results flagged for a closer look

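Across 84 groups of 4 values (the 10 genes, 6 relatives and the pathway genes reported, in each group), 4 held 1 culture that stood well apart from the rest. A rate of 1 in 20, as chance would give, amounts to 4.2. None of the 4 was a value of the 10 genes. *Dusp16* was at 37.8 CPM in vehicle culture 3, against 39.9 CPM in the nearest culture. *Rasa4* was at 9.73 CPM in the same culture, against 10.9 CPM. In vehicle culture 4, *Rasal2* was at 153 CPM against 160 CPM and *Egr3* at 6.84 CPM against 7.17 CPM.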

How the results depend on the processing

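For the 10 genes, 139 of the 150 alternative values kept the direction and the side of the threshold, and 7 genes (*Dusp1*, *Dusp4*, *Dusp5*, *Dusp6*, *Spry2*, *Spry4* and *Spred2*) did so in all 15 alternatives. The number of genes called higher was 5 or 6 and the number called lower 2 or 3. *Dusp10* lost its call with DESeq2 (log2 fold change 0.14), library totals only (0.12) and upper-quartile factors (0.12). Leaving out single cultures gave it a log2 fold change from 0.094 to 0.17 and its adjusted p from 0.00631 to 0.150. *Spry1* ranged from -0.24 to -0.16, with adjusted p from 0.0135 to 0.122, and lost the call in 3 of 8. *Spred1* ranged from -0.042 to 0.0024, the latter without vehicle culture 3, and was never called. The cause of these changes was not tested. Over all genes, 4264 to 4810 were higher and 4093 to 4828 lower. No paired analysis was possible because no label ties a vehicle culture to a TGF-β1 culture. Low counts were mostly even, so counts may not be independent molecules, which may limit the precision. With counts divided by 2 and rounded up, the 10 genes kept their direction and call.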
